A study of Mus musculus with 6 samples.

Results

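The genes described here are 44 nuclear genes for protein subunits of the mitochondrial respiratory chain and ATP synthase, taken by symbol from a given list and grouped by enzyme complex. All 44 were among the 24346 genes in the deposited tables: 17 for complex I, 4 for complex II, 6 for complex III, 1 for cytochrome c, 10 for complex IV and 6 for complex V. RNA-seq was carried out on the renal cortex of C57BL/6 mice that all received a diet labelled HF/HC/HS/BA for 8 weeks. This feed was high in fat and cholesterol and held bile salt, and the HS of its label is not spelled out here. In the treated group, 3 libraries, the feed contained tofogliflozin, an inhibitor of the glucose transporter SGLT2 in the early proximal tubule. In the control group, also 3 libraries, the same feed was given without the drug. The labels give neither sex nor age of the mice, and mice on a standard feed were not analysed here, so the comparison concerns the drug within mice that all received this diet.

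In oxidative phosphorylation, complexes I and II pass electrons from NADH and succinate to ubiquinone, complex III passes them to cytochrome c, and complex IV passes them to oxygen. Complexes I, III and IV pump protons across the inner mitochondrial membrane, and complex V, the ATP synthase, uses the gradient to make ATP. The proximal tubule, which makes up most of the renal cortex, is dense with mitochondria and depends on this pathway for solute reabsorption. Complexes I, III, IV and V also hold subunits encoded in mitochondrial DNA, which were not analysed here. Nuclear genes for these subunits are known targets of the transcription factor NRF1 and of GABPA, also called NRF-2.

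The stretches just upstream of 4 members are shown. Cox7b, Atp5h and Sdhd are among the members with the smallest limma p in their complexes, though the groups of Sdhd overlap. The Cox6a1 stretch holds a pair of NRF1 matches. They are RefSeq promoters of build GRCm38.p6, written 5′ to 3′ on the strand of the gene and shortened so that they hold no exon of a coding gene. Capitals mark matches to the NRF1 letters (GCGCA, any base, then GCGC) or the GABPA letters CCGGAAG on either strand. No match overlaps another.
Atp5h (chr11:115419963-115420127, minus strand): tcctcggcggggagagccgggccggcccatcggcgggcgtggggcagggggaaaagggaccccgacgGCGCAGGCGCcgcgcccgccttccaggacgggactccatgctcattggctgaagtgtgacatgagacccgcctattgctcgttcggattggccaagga
Cox6a1 (chr5:115348982-115349208, minus strand): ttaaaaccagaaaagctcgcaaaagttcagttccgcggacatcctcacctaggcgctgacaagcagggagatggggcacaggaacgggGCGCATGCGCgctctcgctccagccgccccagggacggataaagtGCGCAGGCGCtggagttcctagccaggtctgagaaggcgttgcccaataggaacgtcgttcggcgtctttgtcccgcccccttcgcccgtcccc
Sdhd (chr9:50603850-50603909, minus strand): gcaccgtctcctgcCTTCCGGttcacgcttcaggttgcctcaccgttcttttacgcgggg
Cox7b (chrX:106015450-106015699, plus strand): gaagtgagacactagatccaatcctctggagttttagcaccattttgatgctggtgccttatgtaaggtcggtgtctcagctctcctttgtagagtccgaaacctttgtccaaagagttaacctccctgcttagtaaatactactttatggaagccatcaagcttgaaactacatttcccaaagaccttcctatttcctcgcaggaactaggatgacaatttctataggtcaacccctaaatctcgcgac

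Of the 44 members, 33 had a RefSeq promoter, with 36 windows of 250 bases in all. For 30 of the 36, the bases after the start were found in an annotated transcript of the gene on the same strand. All 36 were kept in the counts. NRF1 letters were found in 8 of these 36 windows (22.2%), against 3.74% of 32851 RefSeq windows, and belonged to Atp5c1, Atp5h, Cox6a1, Ndufa5, Ndufa8, Sdha and Sdhd. In Sdhd the match lies in the first exon of Timm8b, on the opposite strand, and is not shown. GABPA letters were found in 5 windows (13.9%), against 6.91% of all windows, and belonged to Atp5h, Cox6a1, Cox6b1, Ndufs3 and Sdhd. In Atp5h and Cox6a1 the GABPA match lies in bases left out of the shortened stretches and is not shown. The letters TCAAGGTCA of ERR, AAGATGGCG of YY1 and those of PPAR (AGGTCA, any base, then AGGTCA) were in 0 member windows, and in 0.387%, 0.606% and 0.0335% of all windows. By gene, NRF1 letters were held by 7 of 33 members and by 6 of 30 other nuclear subunit genes with a window. GABPA letters were held by 5 of the 33 and 7 of the 30. Among those 30 genes, 1 held ERR letters, 1 held YY1 letters and 0 held PPAR letters. The Cox7b stretch holds none of the 5 sets of letters. As a description, the 7 members with NRF1 letters had log2 changes with tofogliflozin of -0.07 to 0.16 (median 0.10). The 26 without them had -0.15 to 0.17 (median 0.03). This difference was not tested, and the 95% interval of a single member reached, in the median, 0.20 to either side.

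Values are FPKM, fragments mapped to a gene scaled by transcript length and by library size, so that levels can be compared between genes. Their upper quartile over all genes was 10.5 to 10.6 in all 6 libraries while their sums differed, so the libraries may have been scaled to each other before deposit. The files hold no counts, and the depth, estimated from the steps between low values, was about 7740000 to 9980000 fragments per library. At that depth, with the median length of each gene's coding transcripts, the lowest estimate for a member value was about 675 fragments, for Ndufs1. That estimate takes 651 bases, a median over 7 transcripts, and a longer main transcript would raise it. By these rough estimates counting error adds at most about 3.85% (coefficient of variation) to a member value. Proximal tubule markers were high in all 6 libraries, with a summed level of 8807 to 11003 FPKM under diet and 9758 to 10308 with tofogliflozin over 11 genes, so the defining cells of the labelled tissue were present. Markers of white adipocytes, brown adipocytes and striated muscle, which could bring in their own respiratory chain mRNA, summed to at most 2.21, 1.30 and 0.399 FPKM, and Lep, Elovl3, Ckm, Acta1, Myh1 and Myh4 were listed at 0 in every library. Macrophage markers (7 genes) summed to 107 to 292 FPKM under diet, highest in diet replicate 2, and 89.4 to 137 with tofogliflozin, and the 8 collecting duct markers to 214 to 257 and 285 to 341 FPKM. The 4 distal convoluted tubule markers summed to 421 to 466 FPKM under diet and 497 to 561 FPKM with tofogliflozin. Sums of thick ascending limb, podocyte, endothelial and fibroblast markers overlapped between the groups. Fewer cells of a type and less RNA per cell cannot be told apart in these bulk samples.

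The subunit mRNAs were among the most abundant of the cortex. Mean levels over the 6 libraries ran from 140.4 FPKM for Ndufv2 to 1873 FPKM for Atp5b, a 13.3-fold range, and every member lay at or above the 97.3rd percentile of all genes. Together the 44 genes made up 3.77% to 4.09% of the summed FPKM under diet and 3.90% to 3.91% with tofogliflozin. Complex IV stood highest, with a median level over its 10 members of 988 to 1206 FPKM across the libraries. Complex V followed at 539 to 637 FPKM, complex III at 338 to 396 FPKM and complex II at 334 to 385 FPKM. Complex I was lowest, at 227 to 254 FPKM. The ratio of the complex IV to the complex I median was 4.35 to 4.76, and the ranges of the groups overlapped, at 4.35 to 4.76 under diet and 4.41 to 4.71 with tofogliflozin. For complex III over complex I they overlapped too, at 1.49 to 1.56 and 1.46 to 1.56. The groups were apart for complex V over complex I, at 2.31 to 2.43 under diet and 2.51 to 2.60 with tofogliflozin. They were narrowly apart for complex II over complex I, at 1.430 to 1.468 and 1.471 to 1.561. These ratios were not tested. Each compares medians of different genes, and Atp5h, whose own groups are apart, enters the complex V median in every library. Gene by gene, the median log2 change with tofogliflozin was 0.05 in complex V, 0.07 in complex II and 0.03 in complex I. Complexes II and III were indistinguishable in level, since the ranges of their medians overlapped.

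Within a complex the order of levels was partly resolved. Over 38 pairs of neighbouring members, 24 had ranges over the 6 libraries that overlapped and 14 did not. Members deviate together between libraries, and 6 of the 24 overlapping pairs kept 1 order in all 6 libraries: Ndufa2 above Ndufa1, Ndufa1 above Ndufs3, Ndufa8 above Ndufb5, Cox4i1 above Cox6b1, Sdha above Sdhc and Uqcrc1 above Uqcrfs1. In complex I, 14 of 16 neighbouring pairs overlapped. Its highest member was Ndufb8 (554 FPKM), a membrane-arm subunit, which could not be separated from Ndufb9. Its lowest, Ndufv2, could not be separated from Ndufs1. In complex V only 1 of 5 pairs overlapped, that of Atp5c1 and Atp5d. Atp5b, the catalytic β subunit, was 1.91 times as abundant as Atp5a1, the α subunit with which it forms the catalytic ring in equal number. In complex IV the top 3, Ndufa4 (1441 FPKM), Cox6a1 (1439 FPKM) and Cox8a (1428 FPKM), could not be ordered, and Cox7b (358 FPKM) was lowest and apart from its neighbour Cox5a. Sdhb (397 FPKM) was highest and Sdhd (301 FPKM) lowest in complex II, where only Sdhd was apart in range from its neighbour. Uqcrq (768 FPKM) was highest in complex III, and the lowest, Uqcrc2 (292 FPKM), could not be separated from Uqcrfs1.

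**Figure D1:**
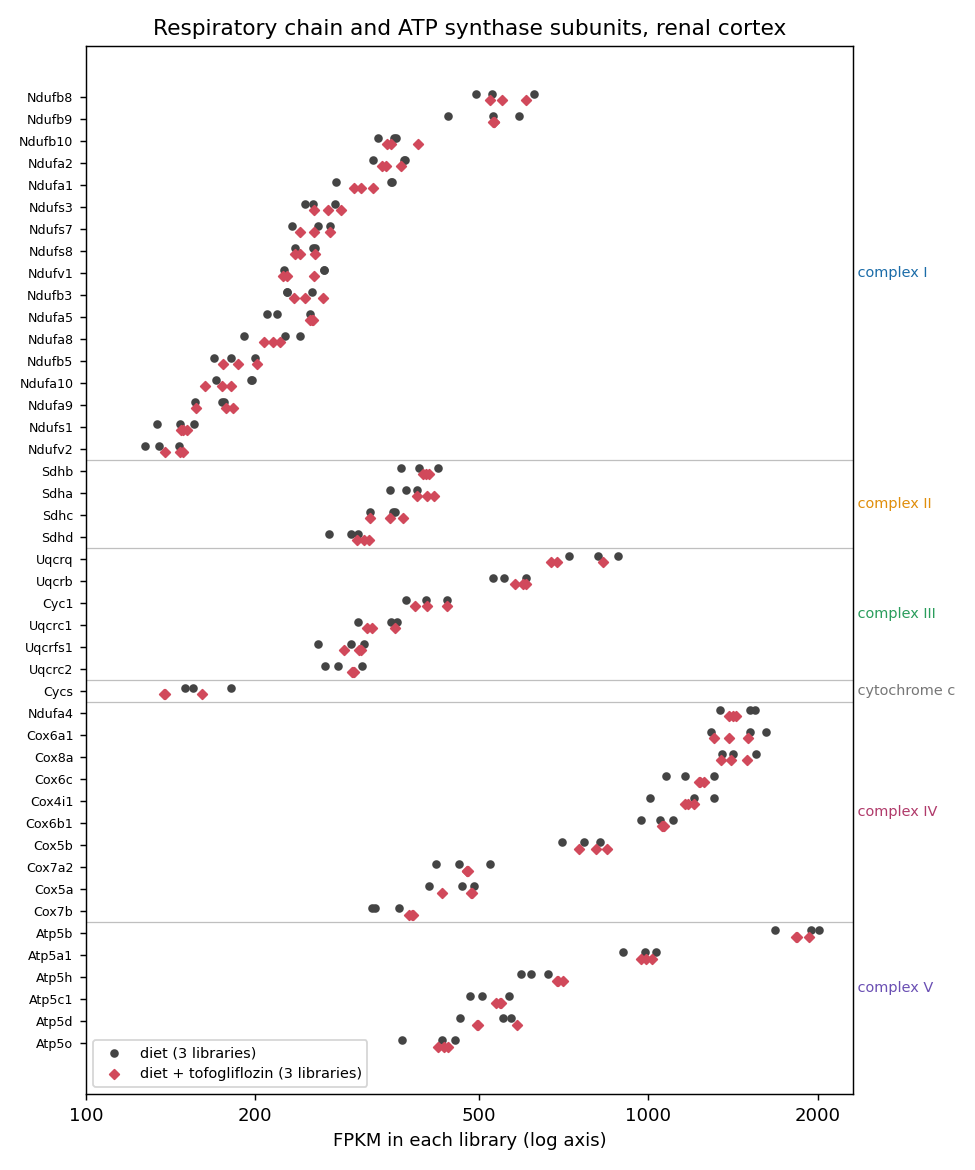
Level of each of the 44 subunit mRNAs in FPKM (log axis), 1 point per library, with 3 diet libraries as circles and 3 tofogliflozin libraries as diamonds, ordered by mean within each complex. Levels run from about 140.4 FPKM (Ndufv2) to 1873 FPKM (Atp5b), and the points of the groups are apart for Cox7b and Atp5h only.

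The comparison that the design implies is whether tofogliflozin changed these mRNAs in the cortex of mice on the diet. None of the 44 did so at the threshold used. With limma on log2(FPKM + 1) values, 0 of 44 members had an adjusted p under 0.05, where 0.253% of the 12248 genes tested did (31 genes), and 0 had an unadjusted p under 0.05, where 13.1% of all genes did. Adjusted p-values of the members ran from 0.383 to 0.997 (limma). Log2 changes ran from -0.15 for Cycs to 0.17 for Cox7b, with 30 above 0 and 14 below and a median of 0.03, against -0.00 over all genes. That sign is not stable, because without diet replicate 2 the median was -0.03 and only 14 members were above 0. The 3 libraries of each group did not overlap for 2 members, Cox7b and Atp5h (4.55%, both higher with tofogliflozin), where 18.5% of all genes had groups apart and 9.63% had every drug library above every diet library.

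The intervals show how large a change the values of each gene, taken alone, allow. They are not the limit of detection at the adjusted threshold. Cox6b2, described below, missed that threshold with an interval clear of no change. For all 44 members the 95% interval of the ratio of tofogliflozin to diet lay within a 1.5-fold change in either direction, and for 38 within 1.25-fold. The exceptions to the narrower range were Ndufa5, Uqcrq, Cox6a1, Cox7b, Atp5h and Cycs. The lowest bound was 0.749-fold (Uqcrq) and the highest 1.28-fold (Ndufa5). These intervals are for 1 gene at a time, and a miss of the threshold does not show that the groups were equal. The labels give n = 3 per group without saying that each library came from a separate mouse, so that the p-values measure the spread between these libraries.

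**Figure D2:**
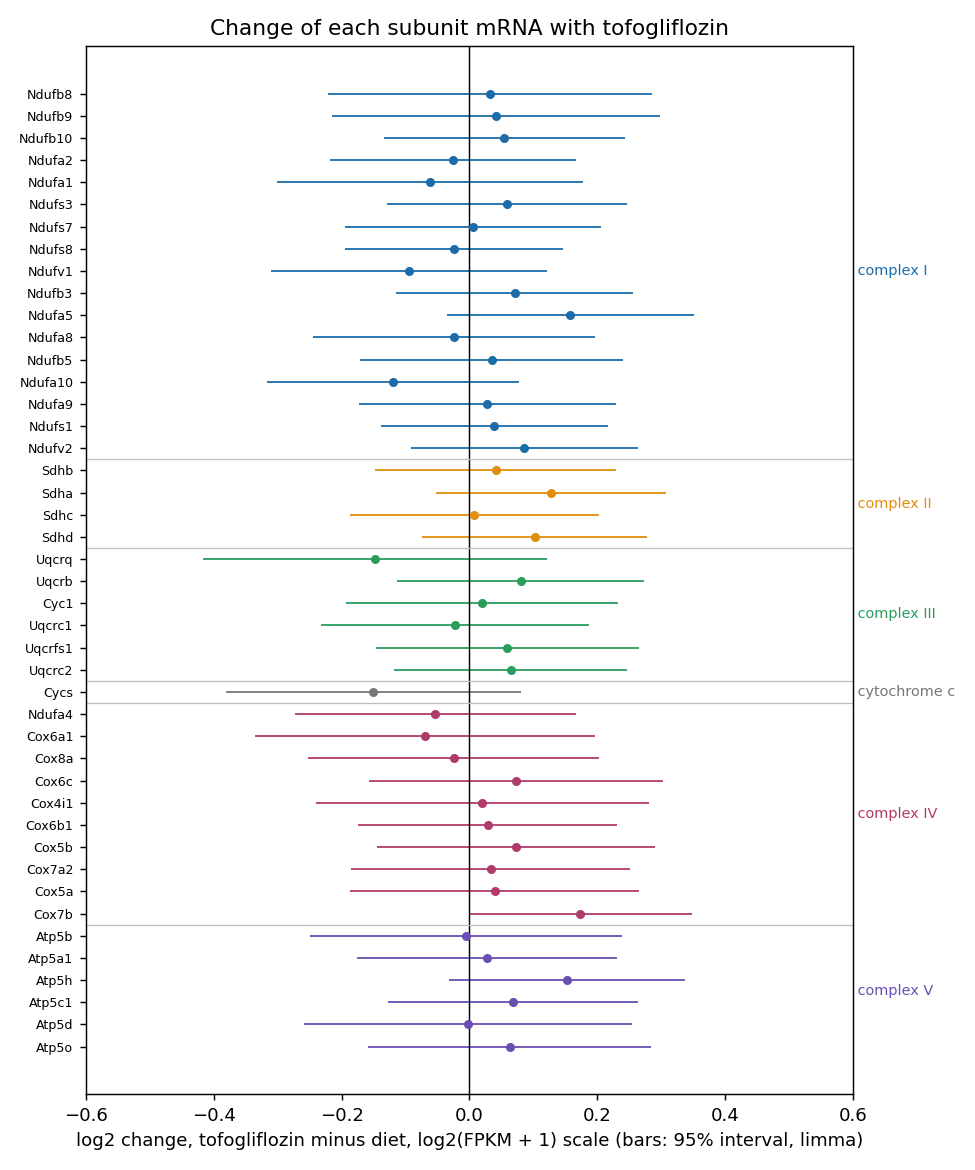
Log2 change (tofogliflozin minus diet, log2(FPKM + 1) scale) of each subunit mRNA with its 95% interval from limma, 3 libraries per group, ordered by complex and level. Changes lie between -0.15 and 0.17, and each interval includes 0.

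Complex I oxidizes NADH. Of its 17 members, 11 had a log2 change above 0 and 6 below, with a median of 0.03, and 0 passed the threshold. Ndufv1, the core subunit that binds FMN and NADH, was at 265, 225 and 265 FPKM in diet replicates 1 to 3 and at 224, 254 and 228 FPKM with tofogliflozin. The groups overlapped, and the ratio was 0.936 (95% interval 0.806 to 1.09; limma adjusted p = 0.720). Its partner Ndufv2, a core iron-sulfur subunit, was at 127, 135 and 146 FPKM under diet and at 147, 149 and 138 FPKM with the drug. The ratio there was 1.06 (0.938 to 1.20; limma adjusted p = 0.691), with the values overlapping. For Ndufs1, the large iron-sulfur subunit, the values were 147, 133 and 156 FPKM against 147, 151 and 149 FPKM. The drug libraries of Ndufs1 sat inside the range of the diet libraries (ratio 1.03, 0.909 to 1.16; limma adjusted p = 0.872), and the log2 change of 0.04 was -0.02 without diet replicate 2. The Ndufs1 gene overlaps Eef1b2 on the opposite strand, and whether strand was used in counting is not given in the sources used here.

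Among accessory subunits of complex I, Ndufa5 (chr6:24518666-24528013) was measured at 219, 210.1 and 251 FPKM under diet. With tofogliflozin its values were 250.1, 253 and 252 FPKM. Diet replicates 1 and 2 were low, but diet replicate 3 lay at the level of the drug libraries, so the groups overlapped (ratio 1.12, 0.976 to 1.28; limma adjusted p = 0.474). Ndufa10 (chr1:92439010-92473860), another accessory subunit, was at 197, 171 and 196 FPKM under diet and 175, 181 and 162 FPKM with the drug. It was the complex I member with the lowest ratio, 0.920 (0.803 to 1.05; limma adjusted p = 0.596), and diet replicate 2 overlapped the drug libraries. Without that library its limma adjusted p was 0.275, the lowest over the alternatives run for Ndufa10, of which the highest was 0.885.

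Complex II, succinate dehydrogenase, is also an enzyme of the citric acid cycle and has no subunit from mitochondrial DNA. All 4 of its members had log2 changes above 0, between 0.01 and 0.13 with a median of 0.07, and 0 of 4 passed the threshold. Sdha (chr13:74322254-74350280), the flavoprotein that oxidizes succinate, was at 370.1, 347 and 388 FPKM under diet and at 388, 404 and 416 FPKM with tofogliflozin. Only diet replicate 3 reached the drug libraries, and the ratio was 1.09 (0.965 to 1.24; limma adjusted p = 0.534). Sdhd, a membrane anchor whose upstream stretch is shown above, was at 296, 271 and 304 FPKM against 303, 319 and 312 FPKM. Here too the highest diet library overlapped the lowest drug library (ratio 1.07, 0.950 to 1.21; limma adjusted p = 0.619). The remaining members, Sdhb (the iron-sulfur subunit) and Sdhc (the other anchor), had ratios of 1.03 and 1.01.

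Complex III passes electrons from ubiquinol to cytochrome c. Its 6 members had 4 changes above 0 and 2 below, with a median of 0.04. Uqcrfs1, the Rieske iron-sulfur protein, was at 296, 259 and 312 FPKM under diet and at 287, 308 and 306 FPKM with the drug (ratio 1.04, 0.904 to 1.20; limma adjusted p = 0.825). Cyc1, cytochrome c1, was at 402, 371 and 439 FPKM against 385, 438 and 404 FPKM, with a ratio of 1.01 (0.874 to 1.17; limma adjusted p = 0.951). The groups overlapped in both of these catalytic subunits, and the drug libraries of Uqcrfs1 lay inside the span of the diet libraries. Without diet replicate 2 the log2 changes of Uqcrfs1 and Cyc1 were -0.02 and -0.04. Uqcrb, a small ubiquinone-binding subunit, was at 554, 528 and 607 FPKM against 598, 606 and 579 FPKM (ratio 1.06, 0.925 to 1.21; limma adjusted p = 0.739). Uqcrq, another small subunit, was at 814, 724 and 883 FPKM under diet and 687, 829 and 671 FPKM with tofogliflozin. In Uqcrq the drug replicates 1 and 3 lay below every diet library and replicate 2 within their range, and the interval was the widest of all members (ratio 0.903, 0.749 to 1.09; limma adjusted p = 0.641).

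Cytochrome c, the mobile carrier between complexes III and IV, is encoded by Cycs (chr6:50562563-50566538). Its mRNA was at 181, 149.8 and 155 FPKM under diet and at 138, 161 and 138 FPKM with tofogliflozin. Diet replicate 1 was the highest and drug replicates 1 and 3 the lowest, while drug replicate 2 lay above 2 diet libraries. The ratio was 0.901 (0.768 to 1.06; limma adjusted p = 0.569), and the log2 change of -0.15 ran from -0.22 to -0.07 when 1 library was left out. Cycs has annotated pseudogenes of its name, so reads may be split among near-identical copies. The testis form Cyct was listed at 0 in every library.

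Complex IV, cytochrome c oxidase, reduces oxygen. Of its 10 members, 7 had changes above 0 and 3 below, with a median of 0.03. This count includes Ndufa4, first named as a complex I subunit and since assigned to complex IV. With Ndufa4 in complex I instead, the medians were 0.03 for complex I and 0.03 for complex IV. Cox7b (chrX:106015700-106022450), a small membrane subunit, had the smallest p of all members. Its values were 327, 323 and 359.5 FPKM in diet replicates 1 to 3 and 382, 376 and 379 FPKM with tofogliflozin. Each drug library was above each diet library, with means of 336 ± 20.2 and 379 ± 3.16 FPKM (SD, n = 3). The ratio was 1.13 (0.999 to 1.27), the unadjusted p 0.0508 and the limma adjusted p 0.383, so Cox7b did not pass.

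The subunits most used as indicators of complex IV, Cox4i1 and Cox5a, showed no separation. Cox4i1 was at 1204, 1006 and 1306 FPKM under diet and 1207, 1178 and 1161 FPKM with the drug (ratio 1.01, 0.847 to 1.21; limma adjusted p = 0.958). Cox5a was at 466, 407 and 490.0 FPKM against 486, 484 and 429.6 FPKM (ratio 1.03, 0.879 to 1.20; limma adjusted p = 0.905). In both genes the 3 diet libraries spanned more than the 3 drug libraries, and without diet replicate 2 the log2 changes were -0.09 and -0.04. The Cox4i1 gene overlaps other genes on both strands. Cox6c overlaps Vps13b on the opposite strand, and so does Uqcrb of complex III with Gm10767. Cox5b, which binds zinc, was at 767, 702 and 821 FPKM against 809, 845 and 753 FPKM (ratio 1.05, 0.905 to 1.22; limma adjusted p = 0.792). Cox6c, a small membrane subunit, was at 1163, 1077 and 1310.4 FPKM against 1256, 1235 and 1231 FPKM (ratio 1.05, 0.897 to 1.23; limma adjusted p = 0.805). The drug libraries of Cox6c lay close together inside the span of the diet libraries. Cox6a1, the liver-type form of subunit VIa, was at 1518, 1289.9 and 1618 FPKM against 1392, 1505 and 1308 FPKM. Its groups overlapped (ratio 0.953, 0.792 to 1.15; limma adjusted p = 0.844), and the log2 change of -0.07 was 0.01 after quantile normalization.

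Complex V makes ATP. Of its 6 members, 4 had changes above 0 and 2 below, with a median of 0.05. Atp5b (chr10:128083273-128090391), the catalytic β subunit and the highest member, was at 1945, 1679 and 2012 FPKM under diet and at 1828, 1933 and 1838 FPKM with tofogliflozin. The drug libraries of Atp5b lay within the span of the diet libraries (ratio 0.996, 0.841 to 1.18; limma adjusted p = 0.987), and the log2 change of -0.01 was 0.07 after quantile normalization. Atp5h (chr11:115415689-115419962), the d subunit of the peripheral stalk, was at 619, 594 and 662 FPKM under diet. With the drug it was at 706, 689 and 689 FPKM, each above each diet library. The means were 625 ± 34.4 and 695 ± 9.45 FPKM (SD, n = 3), the ratio 1.11 (0.979 to 1.26) and the limma adjusted p 0.465. Atp5c1, the γ subunit of the central stalk, was at 507, 483 and 564 FPKM against 544, 547 and 535 FPKM, and its groups overlapped (ratio 1.05, 0.915 to 1.20; limma adjusted p = 0.788). Atp5c1 has 1 annotated pseudogene of its name.

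The members deviated together from library to library. Each member was set against its own mean over the 6 libraries on the log2(FPKM + 1) scale. The median deviation of the 44 was 0.00, -0.13 and 0.09 in diet replicates 1 to 3 and -0.02, 0.07 and -0.00 in tofogliflozin replicates 1 to 3. Diet replicate 2 was thus low across all complexes, and diet replicate 3 was high. Diet replicate 2 held the lowest value of 37 of 44 members (84.1%), where it did so for 22% of all genes tested. By complex it was lowest for 14 of 17, 3 of 4, 5 of 6, 9 of 10 and 6 of 6 members of complexes I to V, and not for Cycs. The same library was lowest for 28 of 33 other nuclear subunit genes and for 21 of 24 ribosomal protein genes, so the pattern was not particular to the 44.

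Diet replicate 2 also stood apart in other values. It had the lowest summed FPKM, 565754 against up to 633338 in the other libraries. Its macrophage markers lay 0.96 above their mean on the log2 scale, against -0.58 to 0.17 in the other 5 libraries. When every library was scaled to the same summed FPKM, diet replicate 2 was lowest for 8 members and diet replicate 1 for 23, and the median deviations narrowed to between -0.06 and 0.06. The part of these values in the spread of the members was not tested. The spread was larger under diet, with a median coefficient of variation over the members of 7.98%, against 4.02% with tofogliflozin, and was larger under diet for 39 of 44 members (88.6%), where 60.2% of all genes tested had the larger spread under diet. Each of these spreads rests on 3 libraries that the members share.

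**Figure D3:**
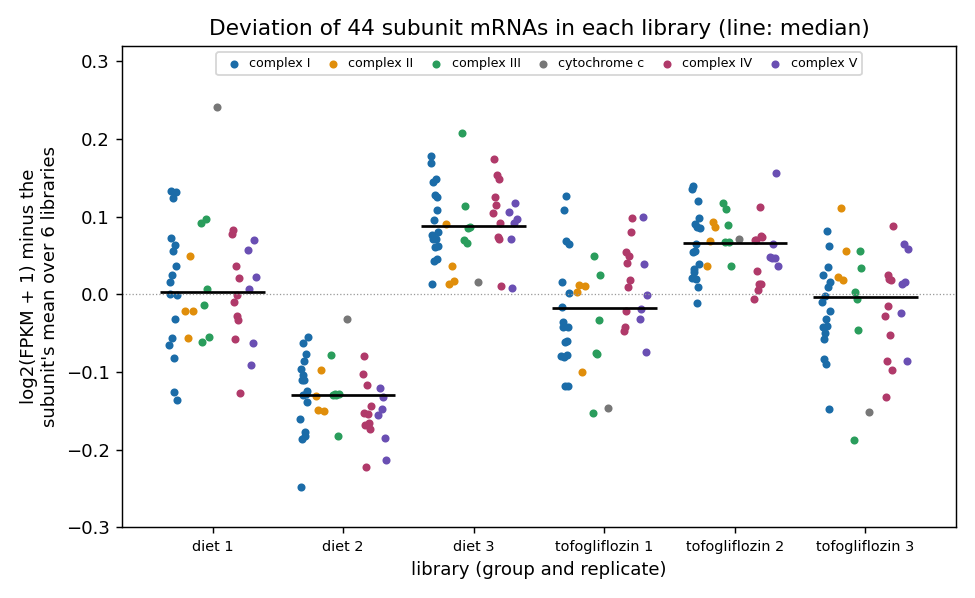
Deviation of each of the 44 subunit mRNAs from its own mean over the 6 libraries (log2(FPKM + 1) scale), 1 point per gene and library, coloured by complex, with the median as a line. Diet replicate 2 has a median of -0.13 and diet replicate 3 of 0.09, while the 3 tofogliflozin libraries have medians of -0.02 to 0.07.

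Some subunits have a second gene whose form is used in muscle, testis or hypoxia, and these were measured beside their widespread partners. The heart and muscle form Cox7a1 reached 41.0 ± 7.09 and 43.6 ± 2.26 FPKM (SD, n = 3), which was 7.19% to 8.83% of the sum of Cox7a1 and Cox7a2 over the libraries. Cox6a2 and Ndufa4l2 were under 4 FPKM in every library, and Cox4i2 and Cox8b did not pass the filter. Cox8c was listed at 0 in every library. Apart from Cox7a1, each isoform gene made up at most 2.14% of the sum with its widespread partner in any library.

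Cox6b2 (chr7:4751792-4753094), known as the testis form of subunit VIb, had the largest difference between the groups among these genes. It was at 7.37, 8.13 and 11.1 FPKM in diet replicates 1 to 3 and at 16.7, 13.5 and 23.2 FPKM in tofogliflozin replicates 1 to 3. Every drug library lay above every diet library. The log2 change was 0.92 (95% interval 0.45 to 1.38), with an unadjusted p of 0.00185 and a limma adjusted p of 0.124, so Cox6b2 did not pass over all genes. Its share of the summed FPKM of Cox6b1 and Cox6b2 was 0.697%, 0.832% and 0.994% under diet and 1.55%, 1.26% and 2.14% with tofogliflozin. Cox6b1, the widespread form, was at 1042 ± 69.0 and 1061 ± 3.53 FPKM (SD, n = 3). Cox6a2, the heart and muscle form of subunit VIa, was at 3.33, 2.81 and 2.35 FPKM under diet and 2.38, 1.52 and 1.82 FPKM with the drug, with groups that overlapped by 1 library (log2 change -0.40, limma adjusted p = 0.307). Cox6a2 lies within Itgad, a gene on the opposite strand.

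**Figure D4:**
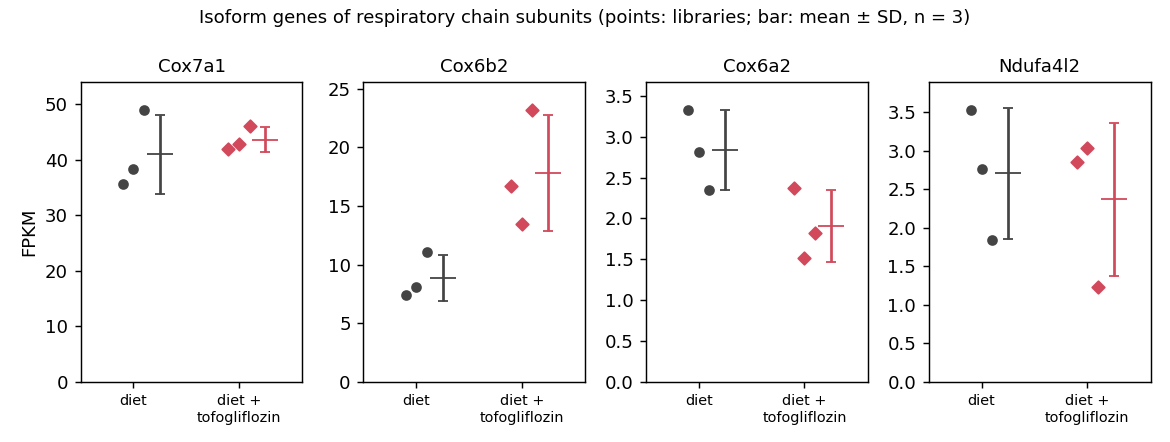
FPKM of 4 isoform genes of respiratory chain subunits, 1 point per library (3 diet, 3 tofogliflozin), with bars for mean ± SD and a separate axis from 0 for each gene. Cox6b2 is at 7.37 to 11.1 FPKM under diet and 13.5 to 23.2 FPKM with tofogliflozin, and the groups of the other 3 genes overlap.

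The remaining nuclear subunit genes gave the same count as the 44. Of 34 listed, 33 were tested, with 19 changes above 0, 14 below and a median of 0.01, and 0 passed the threshold or an unadjusted p of 0.05 (limma). The lowest p-values among them belonged to Ndufv3 and Ndufa13, of complex I. Ndufv3 was at 397, 289 and 340.4 FPKM under diet and 305, 312 and 267 FPKM with the drug (ratio 0.868, 0.711 to 1.06; limma adjusted p = 0.533). Its log2 change of -0.20 was -0.09 without diet replicate 1 and -0.32 without diet replicate 2. Ndufa13 was at 242, 198 and 235 FPKM against 189, 220.1 and 195 FPKM (ratio 0.897, 0.764 to 1.05; limma adjusted p = 0.557). Both sets of values overlapped.

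Assembly factors, which build the complexes and are not part of them, were expressed far lower, with a median of 21.7 to 25.2 FPKM per library over the 47 tested of 48 listed. They had 20 changes above 0 and 27 below, with a median of -0.04, and 0 passed the threshold. At an unadjusted p under 0.05 (limma) there were 4 of the 47, all lower with tofogliflozin. Of the 12248 genes tested, 783 were lower at that p, and 13.1% reached it in either direction. Cox15, which makes heme A for complex IV, was at 22.6, 20.5 and 20.2 FPKM under diet. With the drug it was at 17.1, 17.2 and 16.8 FPKM, and the groups were apart (ratio 0.817, 0.728 to 0.917; limma adjusted p = 0.166). Its gene (chr19:43733254-43753000) overlaps the ends of Entpd7 and Cutc on the opposite strand. Sdhaf3, an assembly factor of complex II, was at 12.8, 11.4 and 11.7 FPKM against 10.7, 9.30 and 8.67 FPKM (ratio 0.810, 0.697 to 0.942; limma adjusted p = 0.230). The others were Pet100 (ratio 0.883) and Taco1 (ratio 0.806), both complex IV factors, named here because the count is small.

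Regulators of mitochondrial gene expression were tested in the same fit. Of 13 genes, 6 had changes above 0 and 7 below, with a median of -0.03, and 0 passed the threshold. Ppargc1a, the coactivator PGC-1α, was at 13.3, 17.5 and 12.2 FPKM under diet and 17.8, 14.6 and 17.3 FPKM with tofogliflozin (ratio 1.15, 0.926 to 1.44; limma adjusted p = 0.573). Its log2 change of 0.21 was 0.35 without diet replicate 2 and 0.10 without diet replicate 3. Tfam, which binds mitochondrial DNA and starts its transcription, was at 13.5, 11.7 and 11.0 FPKM against 13.4, 12.7 and 14.4 FPKM (ratio 1.11, 0.958 to 1.29; limma adjusted p = 0.531). In each of these 2 genes a diet library overlapped the drug libraries, and the log2 change of Tfam, 0.16, was 0.23 without diet replicate 1 and 0.10 without diet replicate 3. The nuclear receptor gene Esrra was at 80.8 ± 10.2 and 71.8 ± 6.89 FPKM (SD, n = 3; limma adjusted p = 0.577). Nrf1 and Gabpa, whose letters are marked in the upstream stretches, were at 6.22 ± 0.434 and 6.08 ± 0.205 FPKM and at 10.9 ± 0.890 and 10.4 ± 1.20 FPKM (SD, n = 3). Their ratios were 0.980 (0.856 to 1.12; limma adjusted p = 0.924) and 0.961 (0.817 to 1.13; limma adjusted p = 0.856). Gabpb1, the partner of Gabpa, and Tfb2m, a mitochondrial transcription factor, had the smallest p-values of the 13, with limma adjusted p of 0.438 (ratio 0.843) and 0.473 (ratio 1.09).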

How the data were processed

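RNA-seq was carried out on 3 diet and 3 tofogliflozin libraries of renal cortex, grouped and numbered by the labels. Per the labels' protocols, RNA was purified on columns and the libraries come from a stranded mRNA kit. The authors deposited 1 table of FPKM values per library, 24346 genes each. Per the submitters' processing notes, TopHat2 2.1.1, Bowtie2 2.2.8, SAMtools 0.1.18, Cuffdiff 2.2.1 and mm10 were named. The role of each tool, like the annotation, the use of strand and any scaling of libraries, is not given in the sources used here.

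For the comparison, the 12248 genes at 1 FPKM or more in 3 or more libraries were compared on the log2(FPKM + 1) scale, which understates the change of low genes, with limma 3.58.1 in R 4.3.3 (mean-variance trend, two-sided). Adjustment was Benjamini-Hochberg over all tested genes, with a threshold of 0.05, and intervals are 95%. Ratios are back-transformed from that scale. No p was computed over the members alone. Same-numbered libraries did not deviate together (correlations -0.05, -0.06 and 0.05), so no block was used. Depth was estimated from the steps of low values (84.3% of 8243 within 1% of a whole multiple). Gene positions are from GENCODE on GRCm38, the build of the files, and promoters from RefSeq. Alternatives were a pseudocount of 0.1, no filter, a filter at 5 FPKM, 3 other scalings, a replicate block, array weights, no trend, a threshold of 0.1 and leaving out each library.

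Full values are given for the members with the smallest p in each complex, 9 fixed members, and, from each other list, the genes with the smallest p and fixed regulators. The highest and lowest members of each complex are named for their level. A few genes so chosen are left unreported here. Other genes named were chosen after their values were seen. The members and lists were chosen with earlier results of these data known. Plots used matplotlib 3.10.9 (Python 3.11.15).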

Additional observations from a re-analysis of the deposited data

How the results depend on the processing

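The count of members past the threshold was 0 under every alternative run. At an unadjusted p under 0.05 (limma) the count moved. It was 5 after quantile normalization (3 higher, 2 lower), where 14.4% of all genes reached that p. It was 3, all higher, without diet replicate 3, where 13.6% of all genes reached that p in either direction. Without diet replicate 2 it was 2, both lower, where 16.1% of all genes did in either direction. Under the other alternatives it was 0 or 1. The members' median log2 change stayed between -0.03 and 0.09. It was lowest without diet replicate 2 (-0.03) and highest without diet replicate 3 (0.09), and it was 0.00 with array weights and 0.04 after quantile normalization. The count of all genes past the threshold was 1 with no filter, 20 with a filter at 5 FPKM, 50 with equal totals, 123 with array weights and 152 at a threshold of 0.1. Leaving out 1 library gave 2 (without tofogliflozin replicate 3) to 66 (without diet replicate 2). With the replicate number as a block it was 26, the smallest adjusted p of a member was 0.617 (limma), and Cox6b2 then passed (limma adjusted p = 0.0472, against up to 0.343 under the other alternatives), though the numbers do not pair the libraries. Quantile normalization reversed Cox6a1 (0.0088) and Atp5b (0.068), and array weights reversed Cyc1 (-0.011) and Cox4i1 (-0.018). When 1 library was left out, log2 changes ran from -0.021 to 0.089 for Ndufs1, -0.017 to 0.12 for Uqcrfs1, -0.040 to 0.081 for Cyc1, -0.085 to 0.10 for Cox4i1, -0.037 to 0.098 for Cox5a, -0.085 to 0.046 for Atp5b, -0.075 to 0.012 for Nrf1 and -0.14 to 0.012 for Gabpa. Leaving out 1 library moved the log2 change of 17 of the 21 members given with full values by over 1.5 times, 15 of them without diet replicate 2 and 14 without diet replicate 3, and that of 13 of 23 other genes. The cause of these changes was not tested. With 3 libraries per group the 95% interval of a member reached, in the median, 0.20 to either side on the log2 scale. Changes under that size could not be told from 0, and larger ones could still miss the adjusted threshold.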

Other observations

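Other gene groups tied to mitochondrial energy supply were measured in the same fit. Of 13 citric acid cycle genes, 6 had a log2 change above 0 and 7 below, with a median of -0.01, and 0 passed the threshold. Cs, citrate synthase, was at 110.5, 111 and 118 FPKM under diet and at 103, 106 and 104 FPKM with tofogliflozin. Each drug library of Cs lay below each diet library, while the ratio was 0.924 (95% interval 0.833 to 1.03; limma adjusted p = 0.508). Of 12 ubiquinone genes, 4 were above 0 and 8 below. Coq10b, a ubiquinone-binding protein gene, was at 32.6, 31.9 and 30.7 FPKM under diet and at 34.7, 44.2 and 37.9 FPKM with the drug, with groups apart (ratio 1.22, 1.05 to 1.41; limma adjusted p = 0.259). Pdss1, which makes the ubiquinone side chain, was at 12.6 ± 0.717 and 10.9 ± 1.45 FPKM (SD, n = 3; limma adjusted p = 0.488).

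The 7 genes for ATP export and outer membrane channels had 6 changes above 0, with a median of 0.07, and 0 passed. Slc25a4, an ADP/ATP carrier, was at 258 ± 48.2 and 292 ± 16.0 FPKM (SD, n = 3; limma adjusted p = 0.577), and its log2 change of 0.19 was 0.075 without diet replicate 2 and 0.33 without diet replicate 3. Vdac1, an outer membrane channel, was at 399.8 ± 22.9 and 433 ± 19.9 FPKM (SD, n = 3; limma adjusted p = 0.589). Cytosolic ribosomal protein genes had 24 of 24 changes above 0, with a median of 0.17, and 0 of 24 passed, with 3 at an unadjusted p under 0.05 (limma), a p that 13.1% of all genes reached. Diet replicate 2 was the lowest library for 21 of the 24, and the median deviations of the list were -0.10 and -0.22 in diet replicates 1 and 2, against 0.03 to 0.14 in the other 4 libraries. The part of these libraries in the shared direction was not tested. Among the 24, Rpl26 was listed at 0 in 3 libraries, and the median over the other 23 was also 0.17. Rps4x was at 351, 365 and 402 FPKM under diet and 475, 418 and 469.8 FPKM with the drug (ratio 1.22, 1.06 to 1.41; limma adjusted p = 0.232). The 11 proximal tubule markers went both ways, with 6 changes above 0, 5 below and a median of 0.01, and at an unadjusted p under 0.05 (limma) 2 were higher and 1 lower. Among the cell type markers the smallest p-values belonged to Scnn1g, a collecting duct sodium channel subunit, at 13.0 ± 0.388 and 17.7 ± 0.179 FPKM, and Slc22a8, a proximal tubule anion transporter, at 169.5 ± 26.8 and 254 ± 16.8 FPKM (SD, n = 3; limma adjusted p = 0.0644 and 0.0883). With array weights both passed (limma adjusted p = 0.0350 and 0.0359), and Slc22a8 also did without diet replicate 2 (0.0232). Without tofogliflozin replicate 3 their limma adjusted p reached 0.254 and 0.336, the highest over the alternatives run.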
